A study of Mus musculus with 4 samples.

Results

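The homing and chemokine receptors described here are 9 genes, Ccr7, Cxcr5, Cxcr4, Cxcr3, Ccr6, Ccr9, Ccr10, Ccr2 and S1pr1, taken by symbol from the 32285 genes of the expression matrices. All 9 were found in both libraries. The cells came from tumours of MC38, a murine colon carcinoma line, grown in female C57BL/6 mice aged 12 to 16 weeks and collected on day 18. Control mice carried floxed Prdm1 alleles (Prdm1 f/f) and knockout mice carried the same alleles together with a B cell Cre driver, so both groups share the floxed alleles. Prdm1 encodes Blimp-1, the transcription factor of plasma cell differentiation. Tumours of 11 recipients were pooled per genotype, and sorted B220+ and CD138+ cells were mixed at a ratio not given in the sources used here. Each genotype gave 1 expression library and 1 B cell V(D)J library, and the date stamps of the deposited files differ between genotypes. A difference between genotypes therefore cannot be told apart from one between sorts or library batches, and no test between genotypes was possible. Every interval below is a 95% counting interval and leaves out the spread between mice.

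Homing receptors are G protein-coupled receptors that steer leukocytes along gradients of chemokines or lipids. CCR7 guides cells to the T cell zones of lymph nodes and CXCR5 to B cell follicles, whereas S1PR1 reads sphingosine 1-phosphate and lets lymphocytes leave tissues. CXCR3 responds to interferon-induced chemokines in inflamed tissue, CCR6 to CCL20 at epithelia, CCR9 to CCL25 in the small intestine, CCR10 to CCL27 and CCL28 in skin and mucosa, CXCR4 to CXCL12 in bone marrow and stroma, and CCR2 to CCL2 on monocytes. Plasma cells are known to use CXCR4, CXCR3, CCR9 and CCR10 according to the tissue in which they settle.

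The control library held 816 barcodes with a median of 5851 UMIs (unique transcript molecules) and the knockout library 897 with a median of 3966. After filtering, 804 control and 863 knockout cells were grouped into 17 clusters, of which 2 stayed unnamed. The plasma-like class had 47 control cells and no knockout cell. B-like cells numbered 239 in the control and 287 in the knockout, and their 11 B cell markers were all detected in both libraries. The control B-like cells lay mostly in a cluster led by Fcer2a, the low-affinity IgE receptor (180 control, 104 knockout cells). The knockout B-like cells lay mostly in one led by Ms4a1, the gene of CD20 (46 control, 165 knockout cells). A cluster led by Dnajc7 held the remaining 13 and 18 cells. The sort also held many cells of other kinds, among them 142 control and 234 knockout NK-like cells. Prdm1 itself gave 43 UMIs in the 47 plasma-like cells, 1 in control B-like cells and 16 in 13 knockout B-like cells. Which exons the floxed alleles remove is not given in the sources used here, so these counts do not check the deletion. Levels are UMIs per 1000000 UMIs of a class (CPM). Shares of cells with a UMI are given after each cell was thinned to 1500 UMIs, with the unthinned share beside them where it matters.

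**Figure D1:**
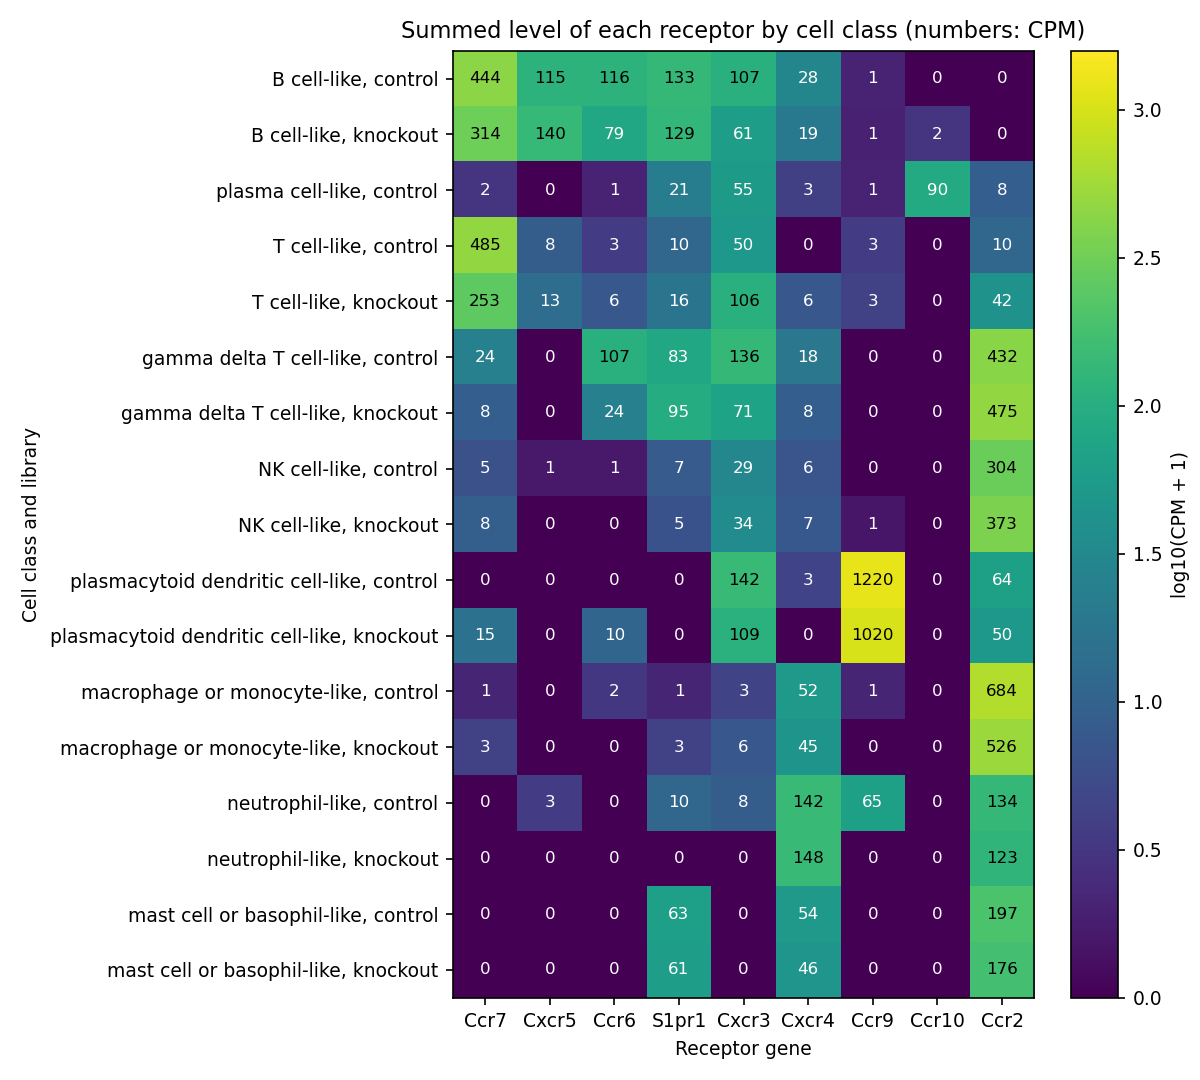
Level of the 9 receptors (columns) in 9 cell classes and 2 libraries (rows), as CPM printed in each square and coloured on a log10(CPM + 1) scale. Ccr9 stands at 1220 and 1020 CPM in plasmacytoid dendritic cell-like cells, Ccr10 at 90.3 CPM in plasma-like cells, and Ccr2 at 0 in both rows of B-like cells.

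The 9 genes lie on chromosomes 1 (Cxcr4, 128588199 to 128592299), 3 (S1pr1, 115710433 to 115715055), 9 (Cxcr5, 44511787 to 44526444; Ccr9, 123767211 to 123783457; Ccr2, 124101918 to 124109140), 11 (Ccr7, 99144199 to 99155077; Ccr10, 101172998 to 101175443), 17 (Ccr6, 8236041 to 8258519) and X (Cxcr3, 101731535 to 101734147) of GRCm38.p6. RefSeq start-site windows were matched for 5 of the 9 members, and the 250 bases before each start were searched on both strands for the Blimp-1 core GTGAAAG, the E-box CANNTG and the T-box core GGTGTG. The Blimp-1 core was held by 3.57% of all 32851 windows of this length, the E-box by 66.2% and the T-box core by 16.3%. Of the 6 windows of Ccr2, Ccr6 (with 2 starts), Ccr9, Cxcr3 and Cxcr4, only the downstream start of Ccr6 held the Blimp-1 core. The motifs, the windows shown and the letters capitalised were chosen after the levels and these matches had been seen, so the match in Ccr6 is no evidence of binding. That window is shown because it is the one with the Blimp-1 core. The window of Ccr9 is shown because this gene was nearly limited to one class, and it held 2 E-boxes and 1 T-box core. Both are GRCm38.p6 sequences from RefSeq on the plus strand. Capitals mark the Blimp-1 core for Ccr6, read on the opposite strand, and the E-boxes for Ccr9. A match describes the letters only.
Ccr6, chr17:8242276-8242525: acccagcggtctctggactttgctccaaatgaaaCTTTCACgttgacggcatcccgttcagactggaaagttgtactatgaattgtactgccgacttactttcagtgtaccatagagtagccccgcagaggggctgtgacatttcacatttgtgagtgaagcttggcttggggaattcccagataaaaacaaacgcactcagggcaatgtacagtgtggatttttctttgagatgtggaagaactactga
Ccr9, chr9:123766961-123767210: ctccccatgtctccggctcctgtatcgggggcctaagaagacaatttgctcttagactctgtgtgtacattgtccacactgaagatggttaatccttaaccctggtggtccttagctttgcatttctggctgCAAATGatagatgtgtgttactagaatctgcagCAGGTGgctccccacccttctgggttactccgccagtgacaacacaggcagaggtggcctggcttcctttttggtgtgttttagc

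Ccr7, the receptor for the lymph node chemokines CCL19 and CCL21, was detected in B-like, T-like and conventional dendritic cell-like cells. The dendritic cell-like cells reached 5306 CPM over 2 control cells and 6966 CPM over 5 knockout cells, which had 55 to 82 and 12 to 68 UMIs each. Every one of these 7 cells carried it, but their number allows no comparison of genotypes. B-like cells of the control had 444 CPM (402 to 489, 411 UMIs) and those of the knockout 314 CPM (280 to 351, 316 UMIs). The ratio was 0.707 (0.608 to 0.820). The thinned share of B-like cells with a UMI was 47.2% in the control and 33.9% in the knockout, after leaving out 4 and 10 shallow cells, and the unthinned share was 70.7% and 48.1%. With doublets kept, the 7 dendritic cell-like cells fell into the B-like class and the log2 ratio was -0.12 in place of -0.50. Macrophage-like cells, which should lack Ccr7, had it in 1 cell of each library although they were deeper (median 8736 and 6991 UMIs against 3055 and 2713 in B-like cells).

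Within B-like clusters the Ccr7 difference was smaller. The Fcer2a cluster had 568 CPM in control cells and 567 CPM in knockout cells, a ratio of 0.997 (0.814 to 1.22). The Ms4a1 cluster had 264 and 222 CPM, with a ratio of 0.843 (0.636 to 1.12), and the Dnajc7 cluster 283 and 238 CPM. Both of these clusters stood below the Fcer2a cluster in each library, and the knockout library held a larger part of its B-like cells in the Ms4a1 cluster. In T-like cells Ccr7 stood at 485 and 253 CPM, a ratio of 0.523 (0.397 to 0.684). That class held 26 control and 12 knockout cells of a cluster led by Penk, and 10 and 31 of one led by Klra6. Within the Penk cluster the ratio was 0.759 (0.543 to 1.04), and within the Klra6 cluster, at 93.2 and 146 CPM, it was 1.57 (0.673 to 4.24). Ccr7 was also uneven from cell to cell. In the Penk cluster, 6 of 26 control cells had 10 or more Ccr7 UMIs and the highest had 51 of the cluster's 179. In the knockout that cluster held 12 cells and 50 UMIs, 29 of them in 1 cell.

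Cxcr5, the follicle-homing receptor for CXCL13, was close to limited to B-like cells. Control B-like cells had 115 CPM (93.8 to 139) and knockout B-like cells 140 CPM (118 to 165), a ratio of 1.22 (0.944 to 1.59). T-like cells, where follicular helper cells would carry it, had 3 and 4 UMIs. NK-like cells gave 1 UMI in 142 control cells and none in 234 knockout cells, at median depths of 7878 and 6222 UMIs. No UMI was found in the 47 plasma-like cells. In the Ms4a1 cluster Cxcr5 was higher in the knockout, at 122 CPM (77 UMIs, 165 cells) against 55.4 CPM (17 UMIs, 46 cells), a ratio of 2.21 (1.29 to 3.98). The thinned share there was 23.8% against 8.70%. The cells of this cluster were unlike in the libraries, with median depths of 5393.5 UMIs (control) and 3016 UMIs (knockout). An IGHM or IGHD heavy chain was called in 22 of 46 control and 134 of 165 knockout cells. Whether this bears on the Cxcr5, Ccr6 and Cxcr3 ratios in the Ms4a1 cluster was not tested. In the Fcer2a cluster the ratio was 1.17 (0.799 to 1.71). Without the highest cell of each library, a setting chosen after seeing the data, the Ms4a1 ratio was 2.53.

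S1pr1, the exit receptor for sphingosine 1-phosphate, had the ratio nearest to 1 of the 6 members measured in B-like cells. Their levels were 133 CPM (110 to 159) for the control and 129 CPM (108 to 153) for the knockout, a ratio of 0.972 (0.753 to 1.25), with thinned shares of 21.7% and 16.6%. The Ms4a1 cluster had 124 and 133 CPM and the Fcer2a cluster 145 and 125 CPM. Gamma delta T-like cells came next, at 82.9 and 95.1 CPM, followed by mast cell or basophil-like cells at 62.5 and 61.1 CPM. Plasma-like cells had 21.1 CPM (13.0 to 32.2), with a UMI in 15 of 47. Macrophage-like cells had 1 UMI in each library and pDC-like cells none in either.

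Ccr6, the CCL20 receptor, was found in B-like and gamma delta T-like cells. B-like cells of the control had 116 CPM (94.8 to 140, 107 UMIs) and those of the knockout 78.5 CPM (62.2 to 97.8, 79 UMIs). The ratio was 0.679 (0.501 to 0.916). The lower level lay in the Ms4a1 cluster, with 130 CPM in the control against 50.8 CPM in the knockout, a ratio of 0.390 (0.237 to 0.637) that became 0.442 without the highest cell of each library. The Fcer2a cluster had 110 and 144 CPM, a ratio of 1.31 (0.848 to 2.00). The thinned share of all B-like cells was 15.7% and 10.1%. NK-like cells had 1 Ccr6 UMI in the control and none in the knockout, at the higher depths given above. Gamma delta T-like cells had 107 CPM from 18 UMIs in the control and 23.8 CPM from 3 UMIs in the knockout, a ratio of 0.223 (0.0421 to 0.764).

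Cxcr4, the CXCL12 receptor, had lower point values in B-like and plasma-like cells than in neutrophil-like, macrophage-like and mast cell or basophil-like cells. B-like cells had 28.1 CPM in control cells and 18.9 CPM in knockout cells, a ratio of 0.672 (0.351 to 1.26). The 47 plasma-like cells gave 3 UMIs in all, 3.01 CPM (0.620 to 8.79), in spite of a median of 20862 UMIs per cell. Neutrophil-like cells, whose cluster was also led by Gpnmb and Inhba, had the highest levels, 142 CPM (55 UMIs, 72 cells) in the control and 148 CPM (12 UMIs, 17 cells) in the knockout. Mast cell or basophil-like cells had 53.6 and 45.8 CPM, from 6 UMIs in each library. The unnamed cluster led by Ace had 52.4 and 48.9 CPM, and macrophage-like cells 52.1 and 44.6 CPM. The intervals of B-like cells overlapped those of macrophage-like and of mast cell or basophil-like cells in both libraries. Over all remaining classes (neither B-like nor plasma-like nor cycling) the ratio was 0.504 (0.360 to 0.699), while it was 1.04 in neutrophil-like and 0.857 in macrophage-like cells. The control library held 72 neutrophil-like and 97 macrophage-like cells and the knockout 17 and 45.

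Cxcr3, the receptor for CXCL9 and CXCL10, had the ratio farthest from 1 of the 6 members measured in B-like cells. Control B-like cells had 107 CPM (87.0 to 130, 99 UMIs in 32 cells) and knockout B-like cells 60.6 CPM (46.4 to 77.9, 61 UMIs in 18 cells), a ratio of 0.566 (0.405 to 0.787). The thinned share was 5.96% and 2.53%, and the unthinned share 13.4% and 6.27%. Mast cell or basophil-like cells, which should lack Cxcr3, had none in 34 control and 45 knockout cells at median depths of 3281 and 2992 UMIs. By cluster, Cxcr3 stood at 182 CPM in control cells and 61.9 CPM in knockout cells in the Ms4a1 cluster, a ratio of 0.340 (0.220 to 0.520), and 0.333 without the highest cell of each library. The small Dnajc7 cluster had 444 and 185 CPM (33 and 21 UMIs). The Fcer2a cluster had 10 UMIs in 180 control cells and 1 in 104 knockout cells.

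**Figure D2:**
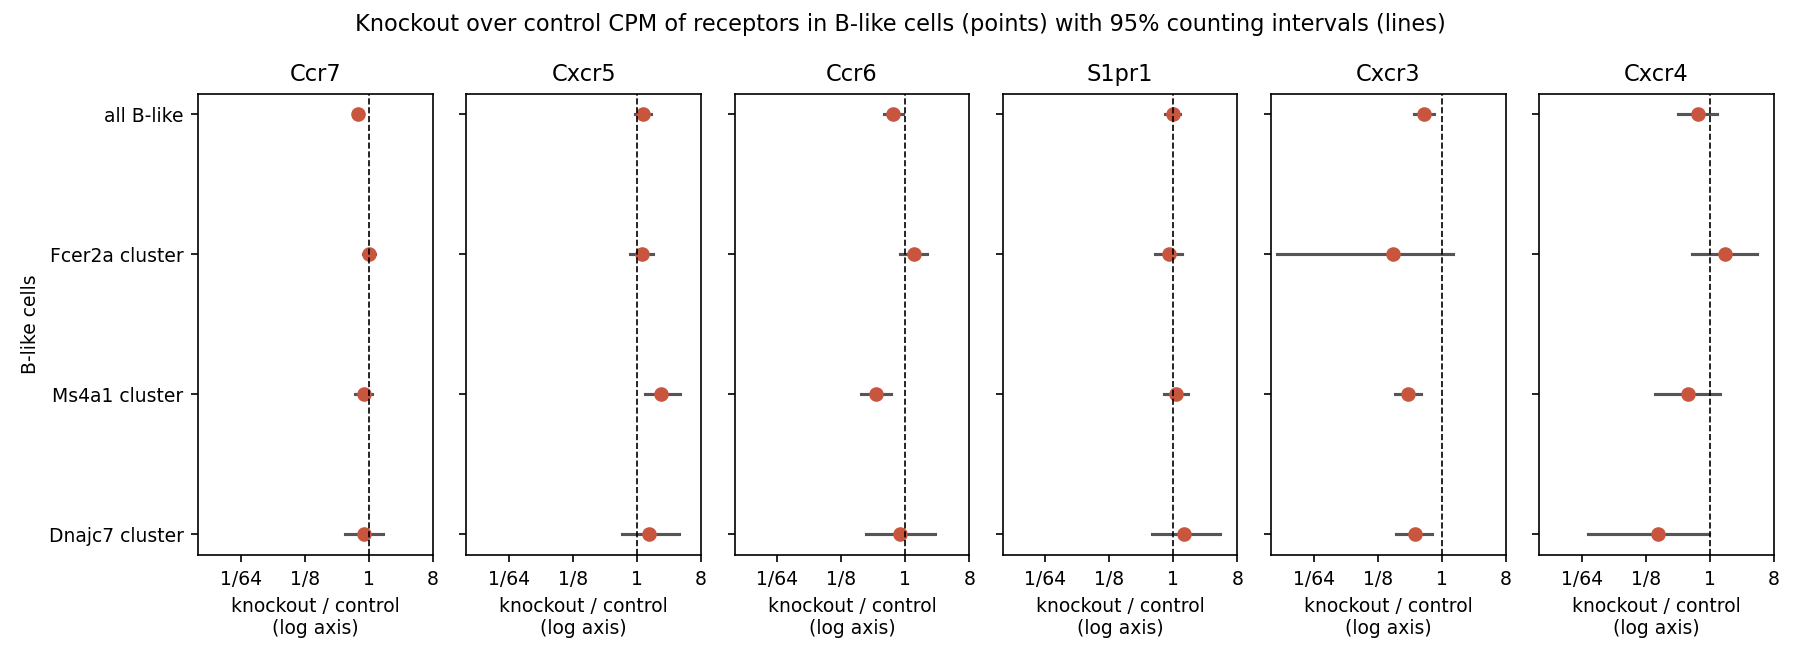
Knockout over control ratio of CPM (horizontal, log axis) for 6 receptors in all B-like cells and in each B-like cluster (rows), with points at the ratio, lines for the 95% counting interval and a dashed line at 1. In the Ms4a1 cluster Cxcr5 sits at 2.21 while Ccr6 sits at 0.390 and Cxcr3 at 0.340, and S1pr1 stays near 1. Median depth in that cluster was 5393.5 UMIs in the control and 3016 UMIs in the knockout.

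B-like cells were then split by the isotype of their heavy chain. Among cells with IGHM or IGHD, the unswitched isotypes, a Cxcr3 UMI was found, unthinned, in 12 of 70 cells of the control (17.1%, 9.18 to 28.03) and in 3 of 244 of the knockout (1.23%, 0.254 to 3.55). The summed levels were 153 CPM (49 UMIs) and 11.3 CPM (8 UMIs), a ratio of 0.0741 (0.0303 to 0.158). After thinning, the shares were 7.14% and 0.851%. The 12 control cells carried 11 distinct heavy chains. Within the Ms4a1 cluster the unswitched cells stood at 217 CPM (30 UMIs, 22 cells) and 12.0 CPM (5 UMIs, 134 cells).

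In class-switched B-like cells Cxcr3 was found in 6 of 6 control cells (25 UMIs, 315 CPM) and in 14 of 29 knockout cells (47 UMIs, 184 CPM), a ratio of 0.585 (0.353 to 0.991). The 14 knockout cells carried 14 distinct heavy chains. The isotype split covers unequal parts of the libraries, since a heavy chain was recovered for 88 of 239 B-like cells of the control library (36.8%) but 273 of 287 of the knockout library (95.1%), and whether recovery bears on the split was not tested. Control cells without a heavy chain had Cxcr3 in 13 of 151 cells and 45.6 CPM. With every cell not called switched pooled, a grouping chosen after seeing the data, 26 of 233 control and 4 of 258 knockout cells had a Cxcr3 UMI, at 87.5 and 18.6 CPM, a ratio of 0.213 (0.111 to 0.380). For the other members the ratio in unswitched cells was 0.825 for Ccr7, 1.10 for Cxcr5, 0.877 for Ccr6, 0.908 for S1pr1 and 0.489 for Cxcr4, each with an interval that held 1.

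**Figure D3:**
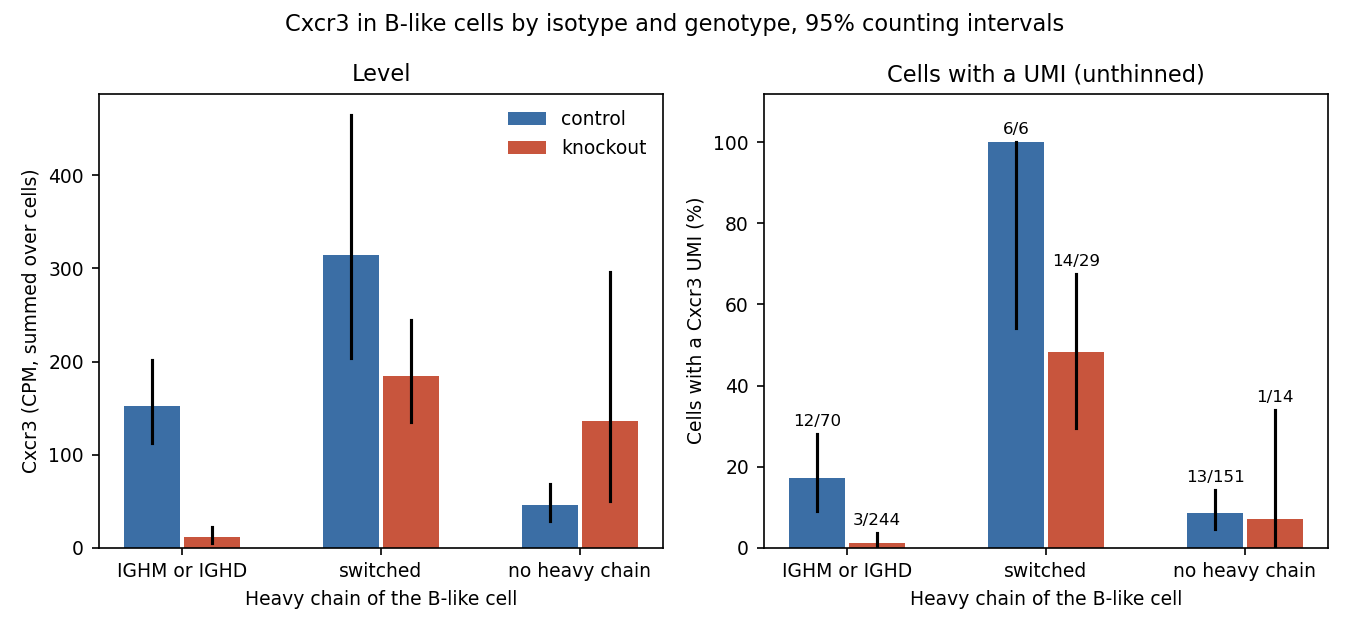
Cxcr3 in B-like cells by heavy chain isotype in the control (blue) and knockout (red) library, as summed CPM on the left and percent of cells with a UMI on the right, with 95% counting intervals as lines and cell counts above the right bars. Unswitched cells show 12 of 70 against 3 of 244, and the bar of knockout cells without a heavy chain rests on 1 of 14 cells.

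Of the classes other than B-like cells, pDC-like cells had the highest Cxcr3 levels (142 and 109 CPM), and gamma delta T-like cells had 136 and 71.3 CPM. The interval of pDC-like cells overlapped that of the next class in both libraries. NK-like cells had 29.4 and 34.4 CPM, with thinned shares of 10.6% and 6.79%. In T-like cells Cxcr3 stood at 49.5 CPM (control) and 106 CPM (knockout). That class held 10 control and 31 knockout cells of the cluster led by Klra6, where the levels were 160 and 166 CPM.

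Ccr10, the receptor for the mucosal chemokine CCL28, was close to limited to plasma-like cells. They had 90 UMIs, 90.3 CPM (72.6 to 111), with a UMI in 33 of 47 cells, a median of 1 per cell and a highest of 16. Outside this class 2 UMIs were found, in 2 knockout B-like cells. In the 239 control B-like cells the level was 0, and the plasma-like level was 27.8 times what 3 counts over that class would give. That fold leaves out the counting error of the plasma-like level. NK-like cells had none in 142 and 234 cells. Immunoglobulin transcripts made up 43.3% of the plasma-like UMIs, and over the remaining UMIs the level was 159 CPM. After thinning to 1500 UMIs it was found in 3 of 47 cells.

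Of the plasma-like cells, 41 carried IGHA, and Ccr10 was found in 29 of these (65 UMIs, highest 6). The 3 cells of other isotypes had 19 UMIs, 16 of them in 1 cell. Cxcr3 was found in 21 of the 47 cells (55 UMIs, 55.2 CPM, 41.6 to 71.8). Both receptors were detected in 14 cells, Ccr10 alone in 19, Cxcr3 alone in 7 and neither in 7. The other members were rare there: Cxcr5 had no UMI, Ccr6 1, Ccr9 1, Ccr7 2, Cxcr4 3 and Ccr2 8, the latter in 2 cells with 4 each. Of these 2 cells, 1 also held the 2 Ccr7 UMIs and 1 Cxcr4 UMI, and the other held the Ccr6 UMI. No knockout plasma-like cell was found, so none of these values has a counterpart in the other genotype.

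**Figure D4:**
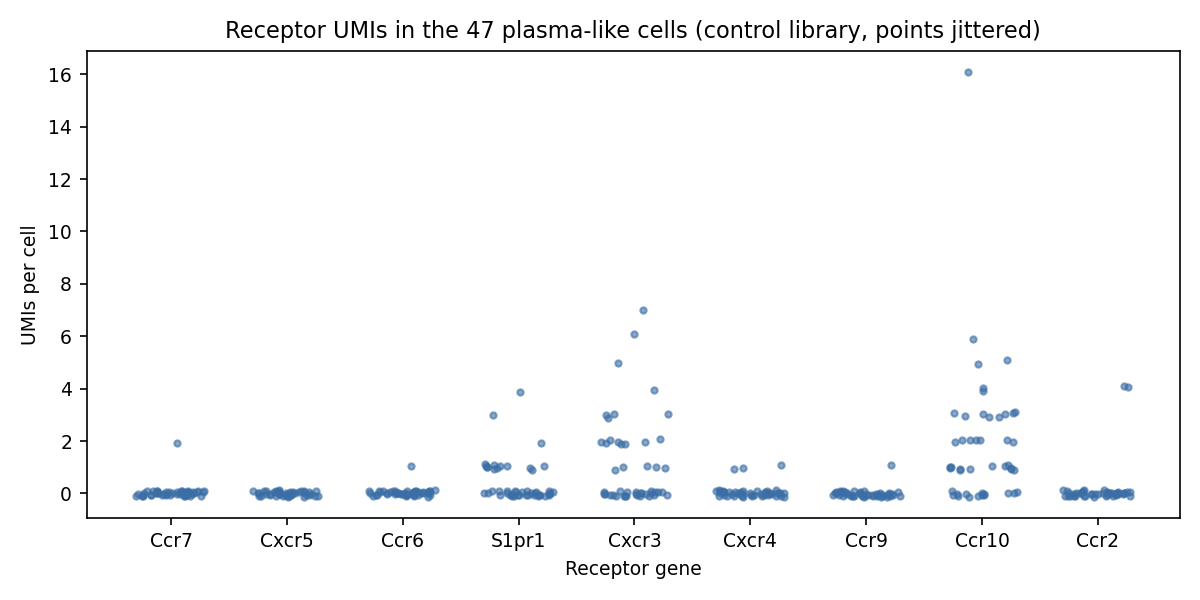
UMIs per cell (vertical) of the 9 receptors in the plasma-like cells of the control library, 1 jittered point per cell. Ccr10 reaches 16 and Cxcr3 reaches 7 in single cells, whereas Ccr7, Cxcr5, Ccr6, Cxcr4 and Ccr9 lie at or near 0.

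Ccr9, the receptor for the intestinal chemokine CCL25, marked pDC-like cells. It stood at 1220 CPM (360 UMIs) in 38 control cells and 1020 CPM (205 UMIs) in 38 knockout cells, a ratio of 0.836 (0.701 to 0.995). Of these cells 94.7% and 89.5% had a UMI, and 71.1% and 77.1% after thinning. NK-like cells had none in the control and 1 UMI in the knockout. The neutrophil-like class of the control had 25 Ccr9 UMIs, all in 1 cell. That cell also held all 16 Siglech and all 16 Klk1 UMIs of its class, which are pDC markers, beside 44 S100a9 UMIs. Without it the level in neutrophil-like cells was 0.

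Ccr2, the CCL2 receptor of monocytes, gave 0 UMIs in 526 B-like cells, for which 3 counts would be a share of 0.570%. The level in NK-like cells, 304 and 373 CPM, was 93.8 and 125 times what 3 counts over the B-like class of that library would give. These folds leave out the counting error of the NK-like levels. Macrophage-like cells of the control had 684 CPM (630 to 742) and those of the knockout 526 CPM (449 to 613). The ratio was 0.769 (0.643 to 0.915). In NK-like cells the ratio was 1.23 (1.09 to 1.38), and the thinned shares were 38.7% and 38.5%. Gamma delta T-like cells had 432 and 475 CPM, mast cell or basophil-like cells 197 and 176 CPM, and neutrophil-like cells 134 and 123 CPM. The unnamed cluster led by Gzmg had 320 and 495 CPM over 16 and 63 cells, at unlike median depths of 25433 and 6089 UMIs.

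Of the 9 members, 6 had at least 20 UMIs in B-like cells over both libraries. Past 1.5-fold, 0 were higher in the knockout, where the background was 8.04% of 7129 genes, and 1 was lower (Cxcr3), where the background was 11.2%. Their median log2 ratio was -0.53, beside -0.06 over all 7129 genes. In NK-like cells 5 members were measured, with 1 higher (Ccr7, from 8 and 15 UMIs; background 6.24%) and 0 lower (background 5.81%). In the Ms4a1 cluster 5 were measured, with 1 higher (Cxcr5; background 12.5%) and 2 lower (Ccr6 and Cxcr3; background 15.7%). In the remaining classes (neither B-like nor plasma-like nor cycling) 7 were measured, with 0 higher (background 8.67%) and 3 lower (Ccr6, Ccr9 and Cxcr4; background 10.7%), and these classes were present in different numbers in the libraries. In the Fcer2a cluster 4 were measured and none passed, where the background was 9.3% higher and 13.9% lower. Among the members that passed, the intervals of Ccr7 in NK-like cells (0.624 to 4.27) and of Ccr6 in the remaining classes (0.166 to 1.006) span 1. The counts are descriptions of 1 library per genotype.

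The other genes of homing fell into 4 lists, read here against the same background of 8.04% higher and 11.2% lower. Over the lists 53 genes were measured, of which 5 were higher and 8 lower. Of the other chemoattractant receptors, 6 had enough UMIs in B-like cells, and 1 was higher (Ackr2, 7 and 19 UMIs) and 1 lower (Gpr132, ratio 0.522). Gpr183, the oxysterol receptor that positions B cells at the follicle edge, had a ratio of 0.708 (0.526 to 0.950), S1pr4 0.812 and P2ry10 0.786. Of 12 adhesion genes 1 was higher, Cd9, a tetraspanin, at 36.8 and 98.4 CPM (ratio 2.68, 1.80 to 4.08), and 0 were lower. Itga4 had a ratio of 0.867, Cd24a 1.13 and Itgb7, a partner in gut homing, 0.707.

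Of 8 ligand and lipid enzyme genes 1 was higher and 4 were lower. The lower ones were Ccl3, Ccl4, Ccl5 and Spns2, and Plpp3, a lipid phosphatase, was the higher one (2 and 19 UMIs). Of the 370 control UMIs of Ccl4, 365 lay in 1 cell, and of the 39 of Ccl3, 32 lay in 1 cell. Ccl4 had 23 UMIs and Ccl3 none in the knockout. Mif had a ratio of 1.11. Of 27 signalling and trafficking genes 2 were higher (Irf4, Rgs10) and 3 lower (Cd69, Rgs1, Rgs2). Within clusters, Cd69 had ratios of 0.740 (Fcer2a) and 0.792 (Ms4a1), with intervals that held 1. Rgs10 was at 0.596 (0.224 to 1.63) in the Ms4a1 cluster, from 9 and 11 UMIs, against its higher level over all B-like cells. Klf2, a transcription factor that maintains S1pr1, had a ratio of 0.690 (0.638 to 0.747) over all B-like cells. It was among the 25 leading genes of the Fcer2a cluster. This cluster took in 75.3% (control) and 36.2% (knockout) of the B-like class. How far such uneven make-up bears on the pooled ratios of Klf2, Gpr183 and Itgb7 was not tested. Cd69, which draws S1PR1 from the surface, had a pooled ratio of 0.639 (0.507 to 0.802), while S1pr1 stood at 0.972. Coro1a was at 0.968, Rac2 at 1.05 and Cd74 at 0.919. The summed level of 7 erythroid markers was 1.08 CPM in control and 286 CPM in knockout B-like cells, with 202 UMIs of Hbb-bs in 1 knockout cell. The summed level of 10 NK cell markers was 2.16 and 60.6 CPM, with 9 of them at 0 in the control and 2 in the knockout. That of 12 macrophage or monocyte markers was 958 and 1700 CPM, with Csf1r, C1qa and C1qc at 0 in both libraries. The part of these markers in the B-like differences was not tested.

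Across 20 points, each a class in 1 library with at least 20 cells, the genes whose log2(CPM + 10) followed each member most closely were listed. The points share libraries and depth, and many of the genes mark the same class. The conventional dendritic cell-like class, highest in Ccr7, had too few cells to form a point. Genes needed at least 50 UMIs over both libraries. Some of those named lay near this minimum, such as Rapgef4 (55 UMIs), Slamf1 (62), Myl4 (64) and Il9r (65). Ccr10 was high at 1 point alone, the plasma-like cells of the control (90.3 CPM), so its r values rest on that point. Those of Ccr9 and Cxcr5 rest mainly on the pDC-like and the B-like points. Ccr10 ran with Tnfrsf17 (r = 0.999), the BCMA receptor of plasma cells, Derl3 (0.97) and Myl4 (0.96). Ccr9 ran with Klk1, Siglech and Klra17 (0.98 to 0.99). Cxcr5 ran with Rapgef4 (0.99), Fcmr (0.97) and Cr2 (0.96). Ccr6 ran with Blk (0.90), Dtx1 (0.90) and Cpm (0.89), and Cxcr3 with Glcci1 (0.90), Ggact (0.90) and Panx1 (0.88). Cxcr4 ran with Mcl1 (0.92), Plekhm1 (0.90) and Npepps (0.89), and Ccr7 with Il9r (0.86), Slamf1 (0.85) and Rhoh (0.85). Ccr2 ran with Pdcd6ip (0.87), Tspo (0.83) and Capn2 (0.79), and S1pr1 with Serpinb1a (0.88), Cnr2 (0.85) and Lmbr1l (0.83).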

How the data were processed

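Per the file headers the deposited expression values are UMI counts per gene and barcode from Cell Ranger 6.0.0, and per the submitters' processing notes the build is GRCm38 (mm10). The deposited V(D)J tables give contigs with UMI counts. Barcodes were dropped below 200 genes or above 10% mitochondrial UMIs, as were Scrublet doublets (1 control, 5 knockout) and 6 knockout barcodes with 2 heavy chains. In all, 3 barcodes were shared between libraries. Cells were clustered with Scanpy 1.11.5 (2000 variable genes, 30 components, 15 neighbours, Leiden resolution 1) without immunoglobulin genes or the 9 members, and named from 17 marker lists. Scrublet was run first on the filtered barcodes and then, for the values given, on all barcodes. That change and the Leiden iteration setting were made after their output had been seen, as was the choice of promoter motifs. Counts were summed per class and expressed as CPM with exact Poisson intervals. Shares have Clopper-Pearson intervals, and ratios exact conditional binomial intervals, all at 95% and for counting error only. A count of 0 allows up to 3 counts. A gene was counted as higher or lower past 1.5-fold with at least 20 UMIs over both libraries. Isotypes were read from the heavy-chain contig with the most UMIs in a cell. The members and the lists were chosen with earlier results of these data known. Named genes are the members, per member the 3 genes with the highest r, per list the 4 with most UMIs in B-like cells, list genes with an interval wholly beyond 1.5-fold, and Klf2, Cd69 and Gpr183. A further gene that this rule names is not reported here. Others named in the list counts, Prdm1, Hbb-bs, and Siglech, Klk1 and S100a9 in 1 cell, were singled out after values were seen. Of the 121 list genes, 5 had no unique symbol. The ratio and thinning steps were tested on simulated Poisson counts. These hold no clumping of UMIs in single cells, so they do not test the intervals where UMIs clump. Alternatives changed the barcode filter, doublets, resolution, clustering genes, CPM denominator, cell weighting, the highest cell, thinning depth, fold and UMI minimum.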

Additional observations from a re-analysis of the deposited data

Results flagged for a closer look

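Some ratios of knockout over control lay on opposite sides of 1 in different classes, with both counting intervals away from 1. With 1 library per genotype these differences were not tested. For Cxcr3 the ratio was 2.14 (1.18 to 3.98) in T-like cells and 0.566 (0.405 to 0.787) in B-like cells. The T-like class was made up differently in the libraries, and within its cluster led by Klra6 the Cxcr3 ratio was 1.04 (0.524 to 2.22). For Ccr2 the ratio was 1.23 (1.09 to 1.38) in NK-like cells and 0.769 (0.643 to 0.915) in macrophage-like cells. The unnamed cluster led by Gzmg had a Ccr2 ratio of 1.55 (1.25 to 1.92) and the cycling class 0.758 (0.587 to 0.977). The Gzmg cluster held 16 control cells with a median of 25433 UMIs and 63 knockout cells with a median of 6089. In T-like cells the Ccr2 ratio was 4.001 (1.24 to 16.8), from 4 control and 13 knockout UMIs, of which 7 lay in 1 knockout cell. In the cycling class, which mixes cell types, the ratio was 4.56 (1.98 to 12.2) for Cxcr3, from 7 control and 32 knockout UMIs, and 4.16 (2.18 to 8.58) for Ccr7. In the unnamed cluster led by Ace the Ccr7 ratio was 18.7 (2.66 to 811), from 1 control and 10 knockout UMIs, of which 8 lay in 1 knockout cell. For Ccr7 the ratio was 0.707 in B-like and 0.523 in T-like cells.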

How the results depend on the processing

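No paired analysis was possible because each genotype has 1 library. Of 60 recomputed ratios in B-like cells and list counts, 55 stayed within the counting interval or within 1.5 times the count. At Leiden resolutions 0.5 and 1.5, and with the members kept in the clustering, the B-like class held the same 239 and 287 cells. The 7 ratios under each of those settings could therefore not move and say nothing on stability. For Ccr7 the log2 ratio in B-like cells was -0.50, and -0.12 with doublets kept, where 2 control and 5 knockout dendritic cell-like cells had joined the class. For Cxcr3 it was -0.82, and -1.35 as the mean over cells of each cell's CPM. In unswitched B-like cells the log2 ratio of Cxcr3 ranged from -4.47 to -3.51. Of the other homing genes, 5 were higher and 8 lower in knockout B-like cells. At a minimum of 50 UMIs these were 1 and 4, with 39 genes measured in place of 53, and 4 were lower past a fold of 2. Of 198 class levels, 182 stayed within their interval. The B-like levels among them could not move under the settings that left the B-like class unchanged, so this count overstates stability. The level of Ccr10 in plasma-like cells ranged from 76.3 to 159 CPM, the upper value over UMIs outside immunoglobulin genes. Shares of cells with a UMI depend on depth: 32 of 50 moved beyond their interval with thinning to 1000 UMIs or with none. Depth limits the rare receptors most, and Cxcr4 in B-like cells rests on 26 and 19 UMIs.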

Other observations

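Several B-like cells carried more than 1 of the 9 receptors. With each cell thinned to 1500 UMIs, 2 or more members were found in 70 of 235 B-like cells of the control (29.8%) and in 65 of 277 of the knockout (23.5%), against 11 of 142 and 9 of 221 NK-like cells. Ccr7 and Cxcr5 were found together in 20 control and 26 knockout B-like cells. Ccr7 was found in 111 and Cxcr5 in 34 of the 235 control cells, and in 94 and 64 of the 277 knockout cells. Whether they shared cells more often than separate detection would give was not tested.

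The cycling class, which mixes cell types, had 17.4 CPM of Ccr7 in the control (12 UMIs, 24 cells) and 72.3 CPM in the knockout (50 UMIs, 36 cells, 20 of them in 1 cell). In the knockout 5 of these cells had 3 or more UMIs of Cd79a, a B cell receptor component, and none did in the control. All 7 Ccr6 UMIs of the knockout cycling cells lay in 1 cell. The unnamed cluster led by Ace had 1 Ccr7 UMI in 23 control cells and 10 in 14 knockout cells, 8 of them in 1 cell. In gamma delta T-like cells Gpr183 stood at 266 and 372 CPM.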
